A study of Mus musculus with 16 samples.

Results

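The tissue difference between liver and white adipose tissue was measured in obese mice that had received no drug. Of the 16 libraries of the series, the 8 from vehicle-injected animals were chosen by their labels, 5 of liver and 3 of white adipose tissue. All animals of the series were DIO (diet-induced obese) mice, and the labels mark the vehicle libraries HFD. Vehicle was injected intraperitoneally every 2 days for 8 weeks, on the schedule on which the other animals received halofuginone at 100 μg/kg. The labels used here give no strain, sex or age, no fat depot and no lean group, and they do not say whether each library is a separate animal or whether a liver and a fat with the same number share one. The p-values below therefore measure the spread between these libraries. Whole tissue was sequenced, so fewer cells of a type and less RNA per cell cannot be told apart.

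Liver is built mainly of hepatocytes, which make most plasma proteins, detoxify nitrogen as urea, turn cholesterol into bile acids and export lipid in lipoproteins. White fat is built of adipocytes, each filled by a single large lipid droplet, which take up fatty acids set free by lipoprotein lipase, store them as triglyceride and release them under hormonal control. In obesity both tissues hold more triglyceride and more macrophages, and many enzymes shared by the 2 organs come in tissue-specific forms encoded by separate genes.

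Liver libraries held 21726549 to 31980683 counts and fat libraries 17070614 to 18423992. The liver libraries were dominated by a few transcripts: the 10 genes with most counts took 21.9 to 23.1% of all counts in liver and 9.72 to 10.4% in fat, with Alb alone at 7.84 to 9.66% in liver. Levels are therefore given as CPM after TMM scaling, which sets the bulk of genes equal between the tissues, and a count of 0 allows a level of up to 3 counts in a library. On this scale the tested genes sum to 1309100 to 1436300 CPM per liver library and 572720 to 582630 CPM per fat library. A level is thus not a share of a library's counts. The first principal component of log2 CPM held 92.9% of the variance and separated the tissues, and the second held 2.52% and separated fat replicate 2 (−54.1) from fat replicate 3 (46.4). The spread between replicates was larger in fat (biological coefficient of variation 0.31) than in liver (0.158).

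As a check of the labels, the hepatocyte and adipocyte markers were read in every library first. Alb (ENSMUSG00000029368), the main plasma protein, stood at 125950, 112230, 131070, 126410 and 124260 CPM in liver replicates 1 to 5 and at 1.34, 1.02 and 0.408 CPM in fat replicates 1 to 3. Adipoq (ENSMUSG00000022878), which encodes the adipocyte hormone adiponectin, stood at 1424, 1492 and 539 CPM in fat and reached at most 0.0528 CPM in liver. Lep (ENSMUSG00000059201), which encodes leptin, had no count in any liver library and 1647, 1298 and 753 CPM in fat. Each library carried the markers of its labelled tissue, and fat replicate 3 had the lowest level of both adipocyte hormones.

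**Figure D1:**
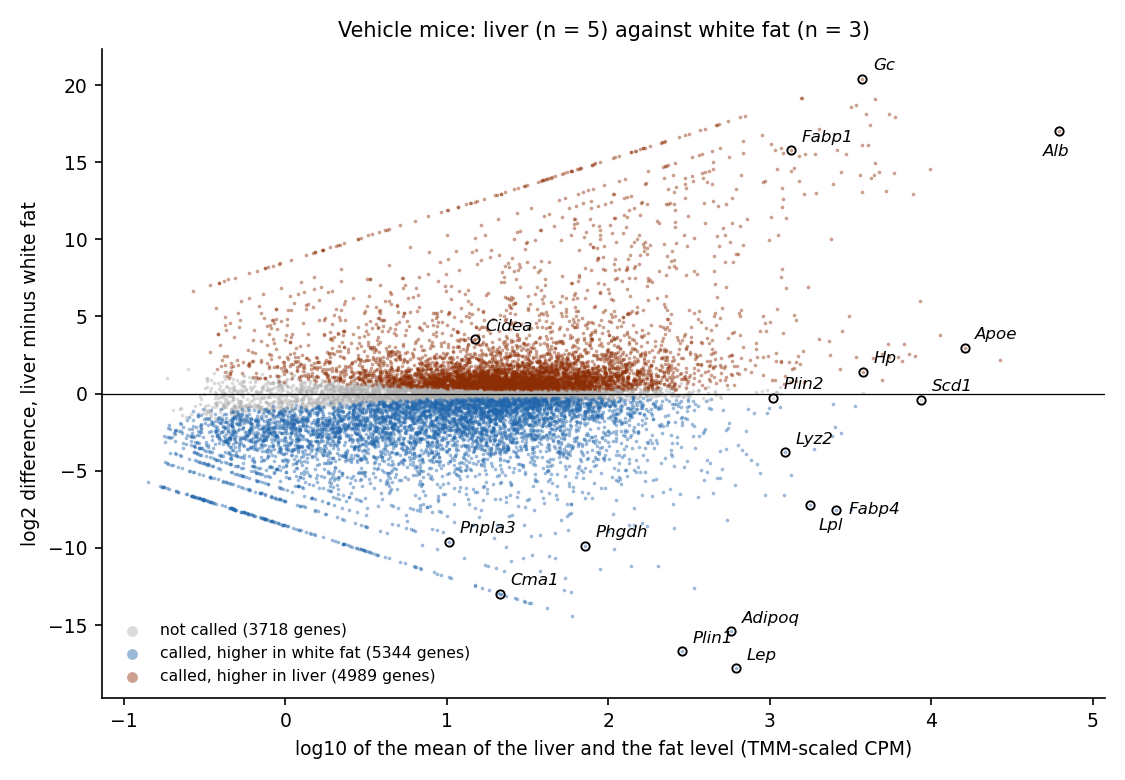
Log2 difference (liver minus white fat) of each of the 14051 genes tested against its mean level, with called genes in brown (higher in liver, 4989) or blue (higher in white fat, 5344). The straight rows of points at the edges are genes with few or no counts in 1 tissue, whose fitted difference has no fixed size; Gc and Alb stand at the top, and Lep, Plin1 and Adipoq at the bottom.

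Promoter sequence was set beside the genes at the extremes of the comparison. A total of 176 genes had at least 10 CPM in all 5 livers and at most 3 counts in each fat library, and 45 genes had the opposite pattern. RefSeq promoters (GRCm38.p6) were matched for 138 and 28 of them. The upstream stretches below were chosen by the genes they precede. Alb, Gc and Fgb are plasma protein genes among the most abundant or most different in liver. Fabp1 is a fatty acid binding protein gene of liver, and Lep, Plin1 and Adipoq had the largest fitted differences towards fat. Each is given as the 100 bases before the annotated start, 5′ to 3′ on the gene's strand, with capitals for a match to the HNF1 motif (GTTAAT, or ATTAAC on the other strand) to the C/EBP motif (TTGCGCAA) or to the TATA box (TATAAA).
Alb (chr5:90460770-90460869, plus strand): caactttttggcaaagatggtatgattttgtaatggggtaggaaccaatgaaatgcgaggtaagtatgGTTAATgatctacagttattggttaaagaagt
Gc (chr5:89457899-89457998, minus strand): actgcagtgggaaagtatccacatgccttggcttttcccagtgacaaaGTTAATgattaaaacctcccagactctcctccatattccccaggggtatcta
Fgb (chr3:83049864-83049963, minus strand): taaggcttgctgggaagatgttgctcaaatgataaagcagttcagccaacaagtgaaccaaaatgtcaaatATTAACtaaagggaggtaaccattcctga
Fabp1 (chr6:71199779-71199878, plus strand): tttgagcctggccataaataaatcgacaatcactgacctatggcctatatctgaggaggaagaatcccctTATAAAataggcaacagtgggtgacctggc
Lep (chr6:29060121-29060220, plus strand): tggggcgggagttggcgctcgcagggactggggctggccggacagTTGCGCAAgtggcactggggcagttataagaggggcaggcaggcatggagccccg
Plin1 (chr7:79732777-79732876, minus strand): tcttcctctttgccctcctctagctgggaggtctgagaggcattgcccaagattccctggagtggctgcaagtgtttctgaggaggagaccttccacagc
Adipoq (chr16:23146436-23146535, plus strand): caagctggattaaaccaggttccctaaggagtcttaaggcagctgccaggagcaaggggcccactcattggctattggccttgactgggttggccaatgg

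The stretches of Alb, Gc and Fgb hold an HNF1 match, that of Fabp1 a TATA box and no HNF1 match, and those of Plin1 and Adipoq none of the 3 motifs. HNF1 proteins are homeodomain factors of hepatocytes, and C/EBP proteins are factors of both hepatocytes and adipocytes. Within the 250 bases upstream, on both strands, the HNF1 motif was found in 29 of the 138 liver genes (21.0%), in 0 of the 28 fat genes and in 7.49% of all 27025 genes of the table. Among the 10944 tested genes with a promoter in the table the share was 5.46%. The TATA box (TATAAA) was in 23.2% of the liver genes, in 3 of the 28 fat genes (10.7%), in 8.58% of tested genes and in 14.3% of all genes of the table. The C/EBP motif, which was rare among all genes of the table (0.185%) and tested genes (0.302%), was in 1 of the 28 fat genes, Lep, and in 0 of the 138 liver genes. A match describes these letters in this window and is not a measured binding site.

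The comparison asked which genes differ between the 2 tissues. Of 14051 genes tested, 10333 (73.5%) had an adjusted p under 0.05 (quasi-likelihood test of edgeR, adjusted by Benjamini-Hochberg), 4989 higher in liver (35.5%) and 5344 higher in fat (38.0%). The shares of 35.5% and 38.0% are the background for the list counts below. In 9883 genes (70.3%) the 5 liver and 3 fat libraries did not overlap. A log2 difference above 10 was fitted for 267 called genes and one below −10 for 68, while 3111 and 4222 passed 1 and −1. The fitted size for a gene with no count in 1 tissue depends on the prior count, so a bound is given for such genes in place of it. The split between the directions rests on the scaling. With library size alone, 1766 genes were higher in liver and 10282 in fat, and the median difference of all genes moved from −0.02 to −1.29. With 10 housekeeping genes as the scale the counts were 3491 and 6969 and the median −0.45, and with upper quartile factors 3873, 6474 and −0.33. All differences are given relative to the TMM scale, on which the median gene is at −0.02, and genes that change direction, and lists whose split between the directions moves by over 10 percentage points, with library size alone are named as such.

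The largest fitted differences towards liver were those of secreted proteins, a transporter and a carboxylesterase. Gc (ENSMUSG00000035540), which encodes the vitamin D binding protein of plasma, stood at 7614, 7332, 7418, 7464 and 7691 CPM in the 5 livers and had no count in any fat library, at least 76700-fold higher in liver. Apoa5, an apolipoprotein of triglyceride-rich particles, was at 1318 ± 112 CPM in liver (SD, n = 5, as for all liver means below) and at 0 in fat. Slco1b2, an uptake transporter for bile acids and drugs, was at 1398 ± 171 CPM in liver and at 0 in fat. Ces1c, a plasma carboxylesterase, was at 3136 ± 319 CPM in liver and at 0 in fat. The remaining 6 of the 10 largest by fitted size were Fgb and Fgg, which encode 2 chains of fibrinogen, the protease inhibitor Mug1, and the major urinary proteins Mup7, Mup14 and Mup20. The order by the bound differs: Serpina1c (at least 121850-fold) and Pzp (at least 85602-fold), not among these 10, stood above Gc. Mup genes are near-identical copies, so reads may have been split among them and their single values are uncertain.

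The largest fitted differences towards fat were those of adipocyte products. Lep was at 1233 ± 450.3 CPM in fat (SD, n = 3, as for all fat means below), at least 7556-fold above the liver floor. Plin1 (ENSMUSG00000030546), the perilipin that coats the adipocyte droplet, stood at 576, 823 and 312 CPM in fat and at 0 in every liver. Adipoq, at 1152 ± 532 CPM in fat, had at most 1 count in any liver library. Retn (resistin), the metalloproteinase inhibitor Timp4, the amine oxidase Aoc3, Apol6 and Arxes2 followed, with no liver library above the 3-count floor for any of them, at 107 ± 58.0, 117 ± 65.2, 681 ± 299.8, 118 ± 47.3 and 107 ± 40.8 CPM in fat. Glb1l2 (179 ± 78.5 CPM in fat) and Sncg (405 ± 170.5 CPM) complete the 10, and Sncg had up to 0.34 CPM in liver. By the bound, Aoc3 (at least 4173-fold) stood above Plin1 (at least 3496-fold).

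**Figure D2:**
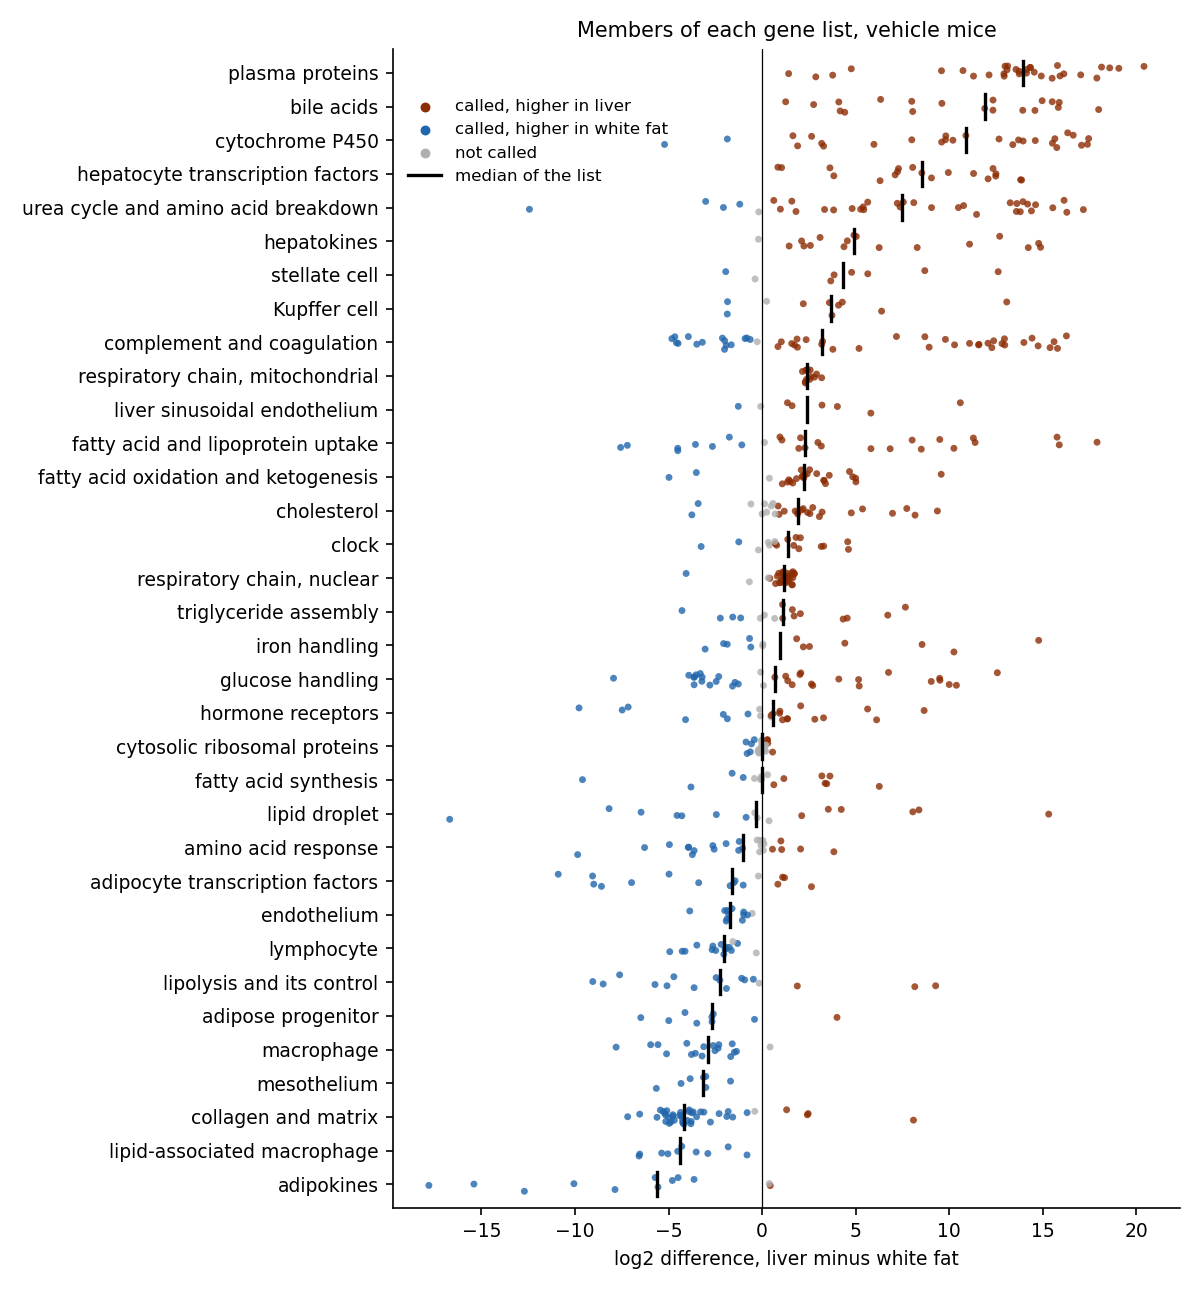
Each point is 1 tested member of a gene list, placed by its log2 difference (liver minus white fat) and coloured by its call, with the list's median as a black bar. Plasma protein, bile acid and P450 lists lie at the top with medians above 10, and adipokine, lipid-associated macrophage and matrix lists lie at the bottom with medians below −4.

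Plasma protein genes were higher in liver without exception. In total 32 of 32 members passed the test towards liver, with a median log2 difference of 13.94 against −0.02 over all genes. The smallest difference in the list was that of Hp, haptoglobin, an acute-phase protein that binds free haemoglobin. Hp stood at 6342, 4108, 6347, 5047 and 5738 CPM in the livers and at 1563, 2866 and 1757 CPM in the fats (log2 difference 1.42, SE 0.26, adjusted p 0.000726), so that fat expressed it at a high level. With library size alone its difference was 0.16 and did not pass. Orm1, an acute-phase glycoprotein, Trf, the iron carrier transferrin, and Rbp4, the retinol carrier, also had clear fat levels of 72.5 ± 36.6, 1550.0 ± 714 and 103 ± 50.8 CPM. Alb was at 0.923 ± 0.474 CPM in the same fat libraries.

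Complement and coagulation genes were divided between the tissues. Of 48 members, 32 were higher in liver, 15 were higher in fat and 1 did not pass, with a median of 3.21. The liver members included C8b, a part of the membrane attack complex, which was at 424 ± 119.7 CPM in liver and 0 in fat. C3, the central complement protein, had the highest FPKM of the list in liver and was also well expressed in fat, at 12176 ± 1751 CPM in liver and 1337 ± 519.6 CPM in fat (log2 difference 3.19, SE 0.32, adjusted p 1.09e-05). The fat members included F13a1, a transglutaminase that crosslinks fibrin (2.72 ± 1.23 against 76.5 ± 7.85 CPM), the plasminogen activators Plau (4.33 ± 1.01 against 109.5 ± 15.5 CPM) and Plat (1.22 ± 0.542 against 29.2 ± 5.19 CPM), and F3, tissue factor (3.91 ± 0.471 against 43.9 ± 7.21 CPM). Cfd, the adipocyte protease adipsin that activates the alternative complement pathway, stood at 11.6, 40.1, 10.6, 11.4 and 16.9 CPM in liver and 298, 629.5 and 288 CPM in fat (log2 difference −4.49, SE 0.48, adjusted p 1.74e-05). The macrophage receptor C3ar1 was at 164 ± 63.6 CPM in fat and 10.7 ± 1.65 CPM in liver.

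Transcription factors of hepatocytes were higher in liver in all 19 of 19 cases (median 8.54, or 8.05 with genes at the floor set at their bound). Library size alone left 17 of the 19 higher in liver and 0 in fat. Hnf4a (ENSMUSG00000017950), a nuclear receptor central to hepatocyte identity, stood at 1234, 1272, 1408, 898 and 1085 CPM in liver and at 0.0672, 7.03 and 2.39 CPM in fat. Fat replicate 2 thus held Hnf4a at a low but clear level while Alb was at 1.02 CPM in it. Foxa3, a forkhead factor, was at 80.5 ± 12.8 CPM in liver and at 0 in fat. Cebpa, which acts in both cell types, had the highest FPKM of the list in fat. It was at 224 ± 50.1 CPM there and 402 ± 58.5 CPM in liver, and its direction reverses with library size alone (0.85 on the TMM scale, −0.42 without it) and on the FPKM scale.

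Of 16 tested transcription factors linked to adipocytes, 11 were higher in fat, 4 were higher in liver and 1 did not pass (median −1.61). By library size alone 1 was higher in liver and 12 in fat. Ebf2, a factor of the adipocyte lineage, was at 10.2 ± 2.49 CPM in fat and at 0 in liver. Pparg, the nuclear receptor that drives adipocyte differentiation, stood at 15.4, 29.1, 31.6, 33.8 and 13.04 CPM in liver and 84.4, 98.2 and 58.1 CPM in fat (log2 difference −1.71, SE 0.32, adjusted p 0.000758). The fat levels of Pparg were all above the liver levels, but liver expressed the gene in every library. The 4 against the list were Klf15 (log2 difference 2.64, SE 0.42, adjusted p 0.000258), Nfia, Cebpb and Cebpa, the last 3 with differences of 1.20, 1.10 and 0.85 that turn negative with library size alone and on the FPKM scale.

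Cytochrome P450 genes, which encode oxidases of drugs, sterols and fatty acids, were higher in liver in 25 of 27 cases (median 10.89). Cyp2c29 was at 965 ± 475 CPM in liver and at 0 in fat. Cyp2e1, which oxidises ethanol and ketones, had the highest FPKM of the list in both tissues and stood at 16750, 19246, 15234, 14715 and 18077 CPM in liver and 271, 448 and 79.2 CPM in fat (log2 difference 5.98, SE 0.59, adjusted p 9.62e-06). All 3 fat libraries held reads of it, with the lowest CPM in replicate 3. The 2 members higher in fat were Cyp1b1, an oxidase of steroids and aromatic compounds (1.85 ± 0.701 against 68.7 ± 24.2 CPM), and Cyp4b1 (18.5 ± 3.92 against 67.1 ± 19.2 CPM).

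Genes of bile acid synthesis and transport were higher in liver in all 19 of 19 tested cases (median 11.90, or 9.61 with genes at the floor set at their bound). Cyp7a1, the rate-limiting enzyme of bile acid synthesis, was at 132 ± 54.5 CPM in liver and at 0 in fat. Hsd3b7, a later enzyme of the pathway, had the highest FPKM of the list in fat, with 39.0 ± 5.47 CPM against 263 ± 32.8 CPM in liver (log2 difference 2.76, SE 0.16, adjusted p 2.77e-07).

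Urea cycle and amino acid breakdown genes were higher in liver in 31 of 36 cases (median 7.46). Cps1 (ENSMUSG00000025991), the first enzyme of the urea cycle, stood at 5379, 3846, 3807, 3260.0 and 3764 CPM in liver and at most 0.0336 CPM in fat. A total of 4 members had the opposite direction, and 2 of them encode the first step of branched-chain amino acid breakdown. Bcat1, the cytosolic branched-chain aminotransferase, was at 36.2, 34.5 and 18.6 CPM in fat and had no count in liver, at least 182-fold higher in fat. Bcat2, the mitochondrial form, was at 12.5 ± 2.33 CPM in liver and 52.5 ± 8.13 CPM in fat (log2 difference −2.07, SE 0.17, adjusted p 2.58e-06). Bckdk, the kinase that switches off the next enzyme of that route, was also higher in fat (log2 difference −1.19, SE 0.18, adjusted p 0.00019).

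Many steps of sugar and lipid metabolism were carried by different genes in the 2 tissues. A total of 27 pairs of related genes, each with a form known from liver and another form, were compared by their deposited FPKM, which is scaled by gene length, within each library. In 17 pairs the 2 forms were called in opposite directions, with the liver form higher in liver in all 17. By median share, the leading form differed between the tissues in 19 pairs. The liver form's share of the pair did not overlap between the tissues in 26 pairs. These include pairs led by the same form in both tissues, such as Cpt1a with Cpt1b (99.1 to 99.7% in liver, 98.1 to 98.6% in fat). The pair that overlapped was acetyl-CoA carboxylase, where Acacb took 32.8 to 41.6% in liver and 30.5 to 40.8% in fat. Among single genes tested, 70.3% did not overlap between the tissues, and shares within unrelated pairs were not measured. The 26 pairs therefore do not set related genes apart from others.

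Glucose entry and breakdown were divided by form. Hk2, a hexokinase of insulin-responsive tissues, stood at 3.43 ± 0.76 CPM in liver and 31.6 ± 10.3 CPM in fat. Slc2a2, the glucose transporter of hepatocytes, took 99.5 to 99.9% of the summed FPKM of its pair with Slc2a4, the insulin-regulated transporter, in liver and 0.471 to 1.43% in fat. The same held for Pklr against Pkm, which encode pyruvate kinases (67.1 to 84.8% in liver, 0 to 1.11% in fat). In fat both forms of the glycogen enzymes were present: Gys2 took 98.8 to 99.3% of its pair with Gys1 in liver and 14.3 to 24.0% in fat, and Pygl 98.7 to 99.1% and 45.1 to 52.9% of its pair with Pygb.

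**Figure D3:**
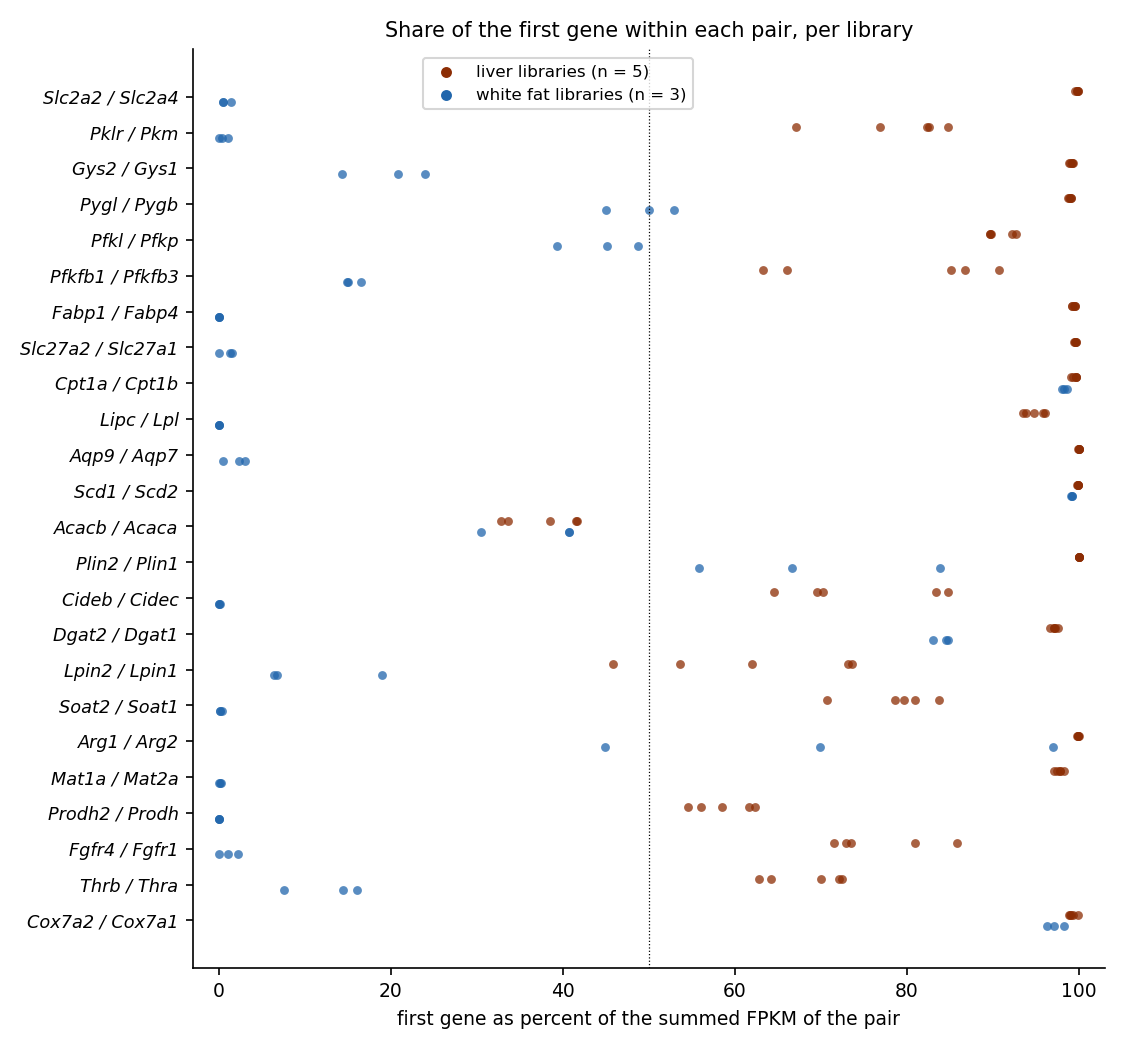
For 24 of the 27 pairs of related genes, the first gene's percent of the summed FPKM of the pair is drawn for each of the 5 liver (brown) and 3 white fat (blue) libraries. In most pairs the liver libraries lie to the right of the fat libraries, and in Acacb with Acaca they overlap.

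Over the whole list of glucose handling, 18 of 35 genes were higher in liver (51.4%), 15 were higher in fat (42.9%) and 2 did not pass. Over all genes tested the shares were 35.5% and 38.0%. The median of the list was 0.68 and turns to −0.58 with library size alone. The liver members held the enzymes that make and export glucose, such as G6pc, glucose-6-phosphatase (162 ± 40.1 against 0.216 ± 0.214 CPM), and Fbp1 (1239 ± 163 against 2.34 ± 2.73 CPM). Pck1, which makes glucose in liver and glycerol for triglyceride in fat, was expressed in both, at 2134 ± 328 and 508 ± 265 CPM (log2 difference 2.07, SE 0.37, adjusted p 0.000539). Hk3, a hexokinase of myeloid cells, was among the fat members at 79.1 ± 50.02 CPM against 6.29 ± 1.58 CPM.

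On the TMM scale, of 17 genes of fatty acid synthesis 7 were higher in liver (41.2%), 4 were higher in fat (23.5%) and 6 did not pass, with a median of −0.03. Over all genes tested the shares were 35.5% and 38.0%. Scaled by library size alone, 5 were higher in liver and 11 in fat (median −1.29). Scd1 (ENSMUSG00000037071), the desaturase that makes oleate, had the highest FPKM of them in both tissues. It stood at 6782, 9821, 2810.0, 11311 and 6553 CPM in liver and 10129, 11515 and 7949.6 CPM in fat, and the groups overlapped on the TMM scale (log2 difference −0.40, SE 0.39, adjusted p 0.365). Its difference was −1.66 with library size alone and −1.80 on log2 FPKM, where it passed towards fat, and as FPKM the groups did not overlap (405 to 1789 in liver, 2842 to 4085 in fat). Acaca, the carboxylase that makes malonyl-CoA, did not pass on the TMM scale (101 ± 18.5 CPM in liver against 103 ± 39.5 CPM in fat) and passed towards fat with library size alone (−1.30). Fasn, fatty acid synthase, was higher in fat at 411, 631 and 227 CPM against 117 to 194 CPM in liver (log2 difference −1.60, SE 0.29, adjusted p 0.000636). The genes higher in liver included the desaturases of polyunsaturated fatty acids, with Fads2 at 925 ± 100.5 against 12.02 ± 8.78 CPM and Fads1 at 498 ± 75.6 against 45.3 ± 5.28 CPM.

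Pnpla3 (ENSMUSG00000041653), which encodes a lipid droplet hydrolase known for its association with human fatty liver, was expressed in fat. It stood at 20.5, 29.5 and 11.8 CPM in fat and had at most 1 count in any liver library. Srebf1, the sterol-regulated factor of lipid synthesis, differed far less, at 45.9, 27.9, 25.7, 48.7 and 57.9 CPM in liver and 66.4, 119 and 63.7 CPM in fat (log2 difference −1.01, SE 0.30, adjusted p 0.0118), and it did not pass without fat replicate 2 (−0.65, adjusted p 0.0686).

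In triglyceride assembly 9 of 16 genes were higher in liver, 4 were higher in fat and 3 did not pass (median 1.10), and with library size alone 6 were higher in liver and 6 in fat (median −0.16). Mttp, which loads triglyceride onto apolipoprotein B for export, stood at 452 ± 24.5 CPM in liver and 2.23 ± 0.131 CPM in fat (log2 difference 7.66, SE 0.16, adjusted p 1.92e-09). Dgat2 and Dgat1 catalyse the last step of triglyceride synthesis. Dgat2 was at 611 ± 42.8 CPM in liver and 286 ± 136 CPM in fat, a difference of 1.10 that turns negative with library size alone and on the FPKM scale, and Dgat1 was higher in fat (log2 difference −1.57, SE 0.24, adjusted p 0.000177). Per length, Dgat2 took most of the pair in both tissues (96.6 to 97.6% in liver, 83.0 to 84.7% in fat).

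Of 16 genes of lipid droplet proteins, 6 were higher in liver, 7 were higher in fat and 3 did not pass, near the 35.5% and 38.0% of all genes tested, with a median of −0.32. With counts scaled by library size alone 6 were higher in liver and 10 in fat. Hsd17b13, a droplet enzyme of hepatocytes, stood at 637, 573, 679, 786 and 649 CPM in liver and at most 0.0336 CPM in fat. Plin5, the perilipin of oxidative tissues, was at 77.7 ± 19.0 CPM in liver and 4.14 ± 1.38 CPM in fat, and Fitm1, a protein of droplet formation, at 30.8 ± 5.15 and 0.0862 ± 0.0824 CPM. Plin2, the perilipin that coats droplets in most cells, stood at 1006, 681, 1287, 926 and 872 CPM in liver and 1047, 924 and 1453 CPM in fat, with overlapping groups on the TMM scale (log2 difference −0.26, SE 0.22, adjusted p 0.318). Its difference was −1.53 with library size alone and −1.57 on log2 FPKM, and as FPKM the groups did not overlap (257 to 486 in liver, 884 to 1396 in fat). It also passed towards fat with upper quartile factors (−0.57) and with the 10 housekeeping genes (−0.70). Plin4 and Cav1, a coat protein and the main protein of caveolae, were higher in fat at 1608 ± 727 and 1085 ± 363 CPM against 68.8 ± 19.5 and 3.75 ± 0.749 CPM in liver.

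The 3 CIDE genes, whose products fuse droplets or load lipoproteins, had 3 patterns. Cideb, the form of hepatocytes, was at 233 ± 19.2 CPM in liver and 0.87 ± 1.08 CPM in fat (log2 difference 8.06, SE 0.73, adjusted p 4.98e-06). Cidec, the form of white adipocytes, stood at 1769, 1788 and 829.8 CPM in fat and at 39.5, 89.4, 77.7, 123 and 44.6 CPM in liver (log2 difference −4.29, SE 0.41, adjusted p 6.87e-06). Cidea (ENSMUSG00000024526), best known from brown fat, was higher in liver, at 10.1, 45.6, 22.1, 41.0 and 18.7 CPM against 2.72, 2.76 and 1.6 CPM in fat (log2 difference 3.54, SE 0.52, adjusted p 0.000157). Every liver was above every fat for Cidea, and liver replicate 1 was the lowest of the 5. Of other brown fat markers, Ucp1, the uncoupling protein, reached at most 0.346 CPM in fat and had no count in liver, and Elovl3, a fatty acid elongase, was at 102 ± 29.2 CPM in liver and at most 0.197 CPM in fat. The brown fat list as a whole was split, with 5 of its 8 members tested. Of these 2 were higher in liver (40%), 2 higher in fat (40%) and 1 did not pass (median −0.68), against 35.5% and 38.0% of all genes tested. Library size alone gave 2 higher in liver and 3 in fat.

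**Figure D4:**
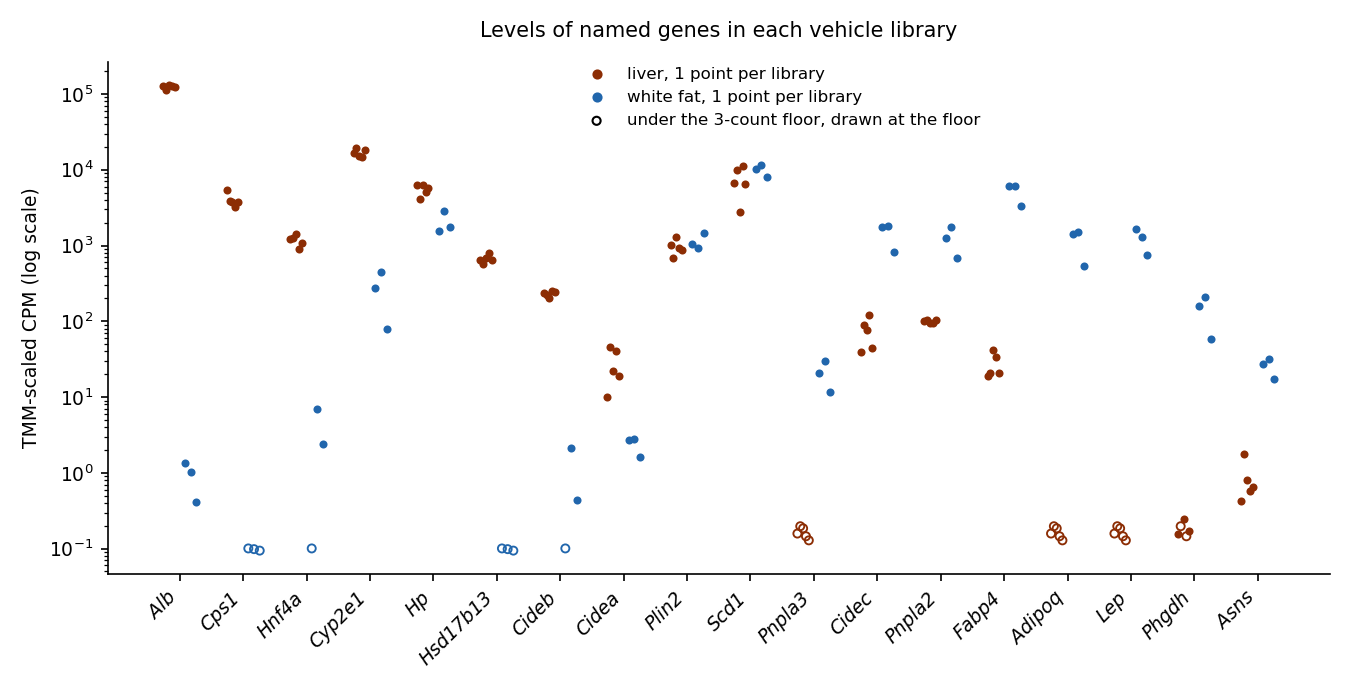
Level of 18 named genes in each library on a log axis, liver in brown (5 points) and white fat in blue (3 points), with open points at the 3-count floor for libraries under it. Plin2 and Scd1 overlap between the tissues on this scale, Cidea is higher in all 5 livers, and Pnpla3, Adipoq and Lep are under the floor in every liver.

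Lipolysis genes were higher in fat in 13 of 17 cases (median −2.26, or −2.09 with genes at the floor set at their bound). Pnpla2, the triglyceride lipase ATGL, stood at 1269.5, 1771 and 677 CPM in fat and 95.5 to 105 CPM in liver (log2 difference −3.63, SE 0.26, adjusted p 8.72e-07). Lipe, hormone-sensitive lipase, was at 792 ± 358 against 23.4 ± 2.76 CPM, and Adrb3, the adrenergic receptor that starts lipolysis in mouse fat, at 48.7 ± 24.0 against 0.906 ± 0.129 CPM. The other 3 called members were higher in liver. Gcgr, the glucagon receptor, was at 132 ± 10.6 CPM in liver and 0.208 ± 0.103 CPM in fat (log2 difference 9.28, SE 0.27, adjusted p 3.86e-09), and G0s2, an inhibitor of ATGL, at 159.8 ± 46.2 and 43.3 ± 12.4 CPM (log2 difference 1.88, SE 0.28, adjusted p 0.000154). The difference of G0s2 did not pass with library size alone (0.63, adjusted p 0.0584). Aqp9, the liver glycerol channel, mirrored Aqp7, the fat channel through which glycerol leaves: Aqp9 took 99.9 to 100.0% of the pair's FPKM in liver and 0.499 to 3.01% in fat.

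Uptake of fatty acids and lipoproteins was divided in the same way by member, with 18 of 27 genes higher in liver, 8 higher in fat and 1 not passing (median 2.30). Lpl, the lipase that frees fatty acids from plasma triglyceride, stood at 4141, 2392 and 4068 CPM in fat and 19.1 to 33.3 CPM in liver (log2 difference −7.20, SE 0.28, adjusted p 1.82e-08), while Lipc, hepatic lipase, was at 161 ± 11.99 CPM in liver and 0.217 ± 0.0747 CPM in fat. Fabp1 and Fabp4, the fatty acid binding proteins of liver and fat, were at 2720.4 ± 350.3 and 27.2 ± 10.2 CPM in liver and at 0.0424 ± 0.0478 and 5139 ± 1549.8 CPM in fat. Cd36, a fatty acid transporter, was at 280.0, 292, 262, 332 and 299 CPM in liver and 3871, 2327 and 4177 CPM in fat (log2 difference −3.56, SE 0.20, adjusted p 2.1e-07). Apoe, the apolipoprotein of remnant particles, was among the 10 genes of highest FPKM in both tissues and higher in liver at 28644 ± 1096 against 3625 ± 537 CPM (log2 difference 2.98, SE 0.24, adjusted p 2.43e-06).

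Fatty acid oxidation and ketone synthesis were higher in liver in 23 of 26 cases (median 2.25). With library size alone 18 were higher in liver and 2 in fat (median 0.99). Bdh1, which makes 3-hydroxybutyrate, was at 278 ± 18.1 CPM in liver and 0.36 ± 0.067 CPM in fat. The 2 genes higher in fat were Oxct1, the enzyme with which tissues other than liver use ketones (7.12 ± 1.59 against 224 ± 38.5 CPM, log2 difference −4.97, SE 0.20, adjusted p 1.93e-08), and Pdk4, a kinase that blocks glucose oxidation, at 15.9, 20.6, 76.2, 13.2 and 11.02 CPM in liver and 421, 329 and 186 CPM in fat. Cpt1a, the gate for fatty acids into mitochondria, was the main form in both tissues, at 99.1 to 99.7% of its pair with the muscle form in liver and 98.1 to 98.6% in fat.

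Cholesterol genes were higher in liver in 19 of 28 cases, 2 were higher in fat and 7 did not pass (median 1.91). By library size alone 13 were higher in liver and 8 in fat. Abcg8, an exporter of sterols into bile, was at 61.1 ± 12.2 and 0.0867 ± 0.017 CPM. The 2 genes higher in fat were Soat1, which esterifies cholesterol in macrophages and other cells (9.31 ± 1.28 against 125 ± 46.5 CPM), and Abcg1, a cholesterol exporter (11.2 ± 1.07 against 119 ± 16.2 CPM). Soat2, the liver form, took 70.8 to 83.7% of its pair with Soat1 in liver and 0.121 to 0.364% in fat.

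Secreted hormones marked each tissue. Of 12 adipokine genes 10 were higher in fat, 1 was higher in liver and 1 did not pass (median −5.64, or −5.26 with genes at the floor set at their bound). The exception was Nampt, an enzyme of NAD synthesis, with overlapping groups and a difference of 0.44 (adjusted p 0.0471) that turns negative with library size alone and on the FPKM scale. With the replicate number as a block its adjusted p was 0.163, and it also did not pass without liver replicate 2, 3, 4 or 5 or fat replicate 2 (adjusted p 0.0681 to 0.113). All 12 adipokine genes were higher in fat with library size alone. Of 17 hepatokine genes 16 were higher in liver and 1 did not pass (median 4.91). Inhbe, an activin subunit made by hepatocytes, was at 171, 101, 163, 212 and 166 CPM in liver and at 0 in fat, at least 1661-fold higher. Fgf21, a fasting hormone, was at 16.9 ± 6.86 CPM in liver and 0.511 ± 0.107 CPM in fat, and Selenop, the plasma selenium carrier, had the highest FPKM of the list in both tissues, with 10781 ± 330.5 and 2494 ± 658 CPM (log2 difference 2.11, SE 0.23, adjusted p 2.04e-05).

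Among 23 hormone receptor and signalling genes, 13 were higher in liver, 7 were higher in fat and 3 did not pass (median 0.58), and with library size alone 6 were higher in liver and 12 in fat (median −0.68). Dio1, the liver enzyme that activates thyroid hormone, was at 169.6 ± 22.6 CPM in liver and 0.414 ± 0.582 CPM in fat. Npr3, which clears natriuretic peptides, stood at 637, 419.6 and 453 CPM in fat and 2.44 to 4.68 CPM in liver (log2 difference −7.16, SE 0.25, adjusted p 9.31e-09). Ptger3, a prostaglandin E receptor that restrains lipolysis, was at 14.1 ± 6.5 CPM in fat and at the 3-count floor in liver. Thyroid hormone receptors divided by form, with Thrb at 62.8 to 72.4% of its pair with Thra in liver and 7.54 to 16.1% in fat, and so did FGF receptors, with Fgfr4 at 71.6 to 85.8% of its pair with Fgfr1 in liver and 0.0542 to 2.21% in fat.

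Transcripts of the respiratory chain were higher in liver on the TMM scale. In total 13 of 13 genes encoded by mitochondrial DNA passed towards liver (median 2.43), and so did 28 of 31 nuclear genes (median 1.15). For mt-Co1, a cytochrome oxidase subunit, the levels were 45470, 47367, 44299, 41913 and 40050 CPM in liver and 11397, 6698 and 11337 CPM in fat (log2 difference 2.16, SE 0.29, adjusted p 8.12e-05). The mitochondrial genes kept their direction with library size alone (median 1.16), whereas the nuclear list then had 6 genes higher in liver, 7 higher in fat and a median of −0.11. Cytosolic ribosomal proteins hardly differed on the TMM scale, with 4 of 26 higher in liver, 5 higher in fat and 17 not passing (median −0.01), and with library size alone all 26 were higher in fat (median −1.28).

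Extracellular matrix genes were higher in fat in 39 of 44 cases (median −4.20). Sparc, a collagen-binding protein, stood at 2902, 3314 and 1691 CPM in fat against 53.1 to 79.0 CPM in liver (log2 difference −5.28, SE 0.25, adjusted p 5.93e-08). Lox, the enzyme that crosslinks collagen, was at 110.2 ± 32.6 against 0.767 ± 0.341 CPM (log2 difference −7.18, SE 0.33, adjusted p 4.54e-08), and Col1a1, a chain of fibrillar collagen, at 293 ± 97.6 against 10.7 ± 4.07 CPM. The other 4 called members were higher in liver. Vtn and Fn1, which encode the adhesion proteins vitronectin and fibronectin, were at 2372 ± 122 and 2532 ± 351 CPM in liver against 8.69 ± 6.28 and 473 ± 149 CPM in fat. Col18a1, a basement membrane collagen, was at 949 ± 39.9 against 172 ± 44.96 CPM, and Col14a1 at 74.5 ± 10.6 against 30.02 ± 3.46 CPM, a difference of 1.31 that turns negative on the FPKM scale and does not pass with library size alone.

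Macrophage genes were higher in fat. Of 18 general macrophage markers 17 were higher in fat and 1 did not pass (median −2.87), and so were all 10 of 10 markers of lipid-associated macrophages (median −4.40), although 1 of the 10, Spp1, lost its call without fat replicate 3 and without each liver. The summed level of the general markers was 688 to 847 CPM in liver and 5710.4 to 10680 CPM in fat, and that of the lipid-associated markers 406 to 569 and 3688 to 11769 CPM. Adgre1, which encodes the F4/80 antigen, stood at 46.0, 37.0, 38.2, 35.9 and 32.4 CPM in liver and 207, 198 and 246 CPM in fat (log2 difference −2.52, SE 0.14, adjusted p 1.32e-07). Gpnmb, a lysosomal glycoprotein of lipid-laden macrophages, was at 1911, 1395 and 4008 CPM in fat and 15.4 to 41.6 CPM in liver (log2 difference −6.58, SE 0.46, adjusted p 8.03e-07), and Trem2, a lipid-sensing receptor, at 150.3 ± 50.6 against 4.57 ± 1.62 CPM. Kupffer cell markers went the other way in 7 of 10 cases (median 3.67): Clec4f, the lectin of Kupffer cells, was at 163, 113, 166, 153 and 107 CPM in liver and at most 0.0336 CPM in fat. Folr2 and Cdh5, which that list shares with other macrophages and endothelium, were higher in fat.

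The other cell types of the 2 tissues were read from their marker lists. Lymphocyte markers were higher in fat in 15 of 17 cases, led by Ighm, the heavy chain of IgM, at 685, 1055 and 435 CPM against 11.99 to 51.7 CPM in liver (log2 difference −4.93, SE 0.53, adjusted p 1.76e-05). All 17 lymphocyte markers were higher in fat with library size alone. General endothelial markers were higher in fat in 11 of 12 cases, and markers of liver sinusoidal endothelium were higher in liver in 6 of 8 cases, with Clec4g at 75.6 ± 6.88 CPM in liver and 0.0438 ± 0.0759 CPM in fat. Scaled by library size alone, 4 were higher in liver and 2 in fat in the sinusoidal list. Stellate cell markers were higher in liver in 6 of 8 cases, led by the collectin Colec10 at 33.8 ± 3.14 CPM in liver and 0 in fat, and with library size alone 6 were higher in liver and 2 in fat. Adipose progenitor markers were higher in fat in 8 of 9 cases, the exception being Dpp4, a dipeptidyl peptidase also made by hepatocytes (150.4 ± 8.07 against 9.36 ± 1.41 CPM). Mesothelial markers, from the lining of visceral organs, were higher in fat in all 7 of 7 cases at low levels, with Upk3b at 5.47, 20.3 and 5.34 CPM. Markers of cholangiocytes, the cells of bile ducts, were also low and divided: of 6 tested, 3 were higher in liver, 1 was higher in fat and 2 did not pass. Library size alone gave 1 higher in liver and 3 in fat for them.

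Genes that respond to amino acid shortage are the pathway on which halofuginone acts, and their baseline differed by member. Of 25 tested genes, 5 were higher in liver, 13 were higher in fat and 7 did not pass (median −1.04). With counts scaled by library size alone 2 were higher in liver and 21 in fat. Phgdh (ENSMUSG00000053398), the first enzyme of serine synthesis, stood at 161, 209.7 and 58.4 CPM in fat and 0.158, 0.0659, 0.247, 0.0971 and 0.172 CPM in liver (log2 difference −9.86, SE 0.50, adjusted p 9.12e-08). Psat1, the next enzyme, and Asns, asparagine synthetase, were at 75.4 ± 26.7 and 25.4 ± 7.69 CPM in fat against 1.0 ± 0.663 and 0.846 ± 0.539 CPM in liver. Atf4, the transcription factor of the response, stood at 75.7, 95.7, 114, 81.8 and 94.2 CPM in liver and 80.6, 97.7 and 85.3 CPM in fat (log2 difference 0.07, SE 0.15, adjusted p 0.683), and the sign turned with library size alone (−1.20). Shmt2, the mitochondrial serine hydroxymethyltransferase, was higher in liver (246 ± 23.3 against 17.2 ± 3.6 CPM, log2 difference 3.84, SE 0.18, adjusted p 5.37e-08), as was the transcription factor Atf5 (log2 difference 2.06, SE 0.17, adjusted p 2.87e-06).

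Iron and clock genes were also mixed. Hamp, which encodes the iron hormone hepcidin, stood at 1015, 248, 399.5, 241 and 387 CPM in liver and at most 0.0329 CPM in fat, and Slc11a1, an iron transporter of macrophages, was higher in fat (13.6 ± 3.63 against 112 ± 35.6 CPM). Of 14 iron genes 7 were higher in liver (50%), 5 were higher in fat (35.7%) and 2 did not pass (median 0.95). Over all genes tested the shares were 35.5% and 38.0%. With library size alone 6 iron genes were higher in liver and 7 in fat (median −0.32). Of 17 clock genes 11 were higher in liver, 2 were higher in fat and 4 did not pass (median 1.37), and with library size alone 7 were higher in liver and 6 in fat (median 0.10). Dbp, an output of the clock, was at 72.7 ± 21.8 against 7.4 ± 3.06 CPM, whereas Arntl, the activator BMAL1, was at 3.74 to 10.1 CPM in liver and 10.9 to 14.4 CPM in fat (log2 difference −1.25, SE 0.30, adjusted p 0.004) and Npas2 at 0.669 ± 0.378 against 6.25 ± 1.91 CPM. The labels used here give no time of day for the samples.

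On the TMM scale some abundant genes did not pass. Among those not called and within 0.25 on the log2 scale, the 10 of highest mean level included Itm2b, a membrane protein, at 1160.2 ± 38.1 CPM in liver and 1197 ± 54.2 CPM in fat, and Ppia, a prolyl isomerase, at 447 ± 29.1 and 484 ± 36.9 CPM. Both passed towards fat with library size alone (−1.31 and −1.38), as they did with upper quartile factors and the 10 housekeeping genes. A total of 5455 genes had at least 10 CPM in all 8 libraries.

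Within a tissue, a few genes varied widely between replicates. Mup7, Mup14, Hsd3b5, Selenbp2 and Nrep had the largest spread in liver among genes with at least 20 CPM. Hsd3b5, a steroid dehydrogenase known from male mouse liver, stood at 1.48, 131, 117, 5.88 and 45.8 CPM in the 5 livers and at 0 in fat. Mup7 stood at 3956, 25709, 14575, 2337 and 8443 CPM and Selenbp2, a selenium-binding protein, at 12.6, 156, 125, 31.6 and 53.2 CPM. For these 3 genes, replicates 2 and 3 were the highest livers and replicates 1 and 4 the lowest, while Nrep was also high in replicate 4 (3.69, 73.2, 35.0, 57.7 and 28.1 CPM). Nrep did not pass between the tissues, but passed towards liver without liver replicate 1 (1.59, adjusted p 0.00376).

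In fat the largest spread was in Serpinb9b, Cpa3, Col8a1, Spp1 and Cma1, all highest in replicate 3. Cpa3 and Cma1, proteases stored in mast cells, stood at 10.7, 5.19 and 105 and 12.7, 9.92 and 105 CPM in fat, and each liver had at most 1 count of either. Mmp12, a macrophage elastase, stood at 709.9, 388 and 4419 CPM, and Spp1, osteopontin, at 50.1, 33.7 and 473 CPM against 45.5 to 69.5 CPM in liver, so that fat overlapped with liver for Spp1. Its call towards fat (log2 difference −1.81, SE 0.70, adjusted p 0.0378) turned to a log2 difference of 0.34 (adjusted p 0.162) without fat replicate 3, did not pass when each liver was left out in turn (adjusted p 0.0529 to 0.0722), and did not pass with the replicate number as a block (−0.68, adjusted p 0.506). Fat replicate 3 also held Crisp1, a secretory protein of epididymis, at 34.6 CPM against 0.269 and 0.0329 CPM in the other 2, and 5 of 9 epididymis markers were at or under the floor in every fat library. Fat replicate 2 held low levels of genes of hepatocytes and other epithelia, with Hnf4a at 7.03 and Krt19, a keratin of ducts and mesothelium, at 10.7 CPM, and its Alb level was 1.02 CPM. The call of Krt19 towards fat (log2 difference −1.95, SE 0.63, adjusted p 0.0175) was lost without that library (−0.44, adjusted p 0.312). The part of other tissue in these 2 fat libraries was not tested.

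Single libraries set the size of some called differences while leaving their direction. Without fat replicate 2 the fold difference grew by more than 1.5 times for several genes higher in liver. On the log2 scale it went from 8.66 to 10.94 for Dio1, from 8.06 to 9.79 for Cideb, from 9.04 to 10.53 for Fbp1, from 8.54 to 9.89 for Hnf4a and from 4.17 to 5.45 for Fgfr4. The same step gave 7.84 for Pklr, 10.41 for G6pc, 9.02 for Aqp9, 7.03 for Fads2, 8.78 for Vtn and 6.59 for Cyp2e1. Clec4g, Elovl3 and Fitm1 then had at most 3 counts in each remaining fat library, so no size is given for them. Without fat replicate 3 the difference shrank from −9.20 to −5.84 for Serpinb9b, from −6.33 to −4.16 for Col8a1, from −6.54 to −4.79 for Mmp12 and from −3.65 to −2.99 for Hk3. Upk3b went from −4.33 to −3.39 without fat replicate 2. Without either library no list count given above changed by more than 2 genes, the brown fat and cholangiocyte lists not being recounted. Nampt, the single adipokine higher in liver, lost its call without fat replicate 2, as it did without each of liver replicates 2 to 5.

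**Figure D5:**
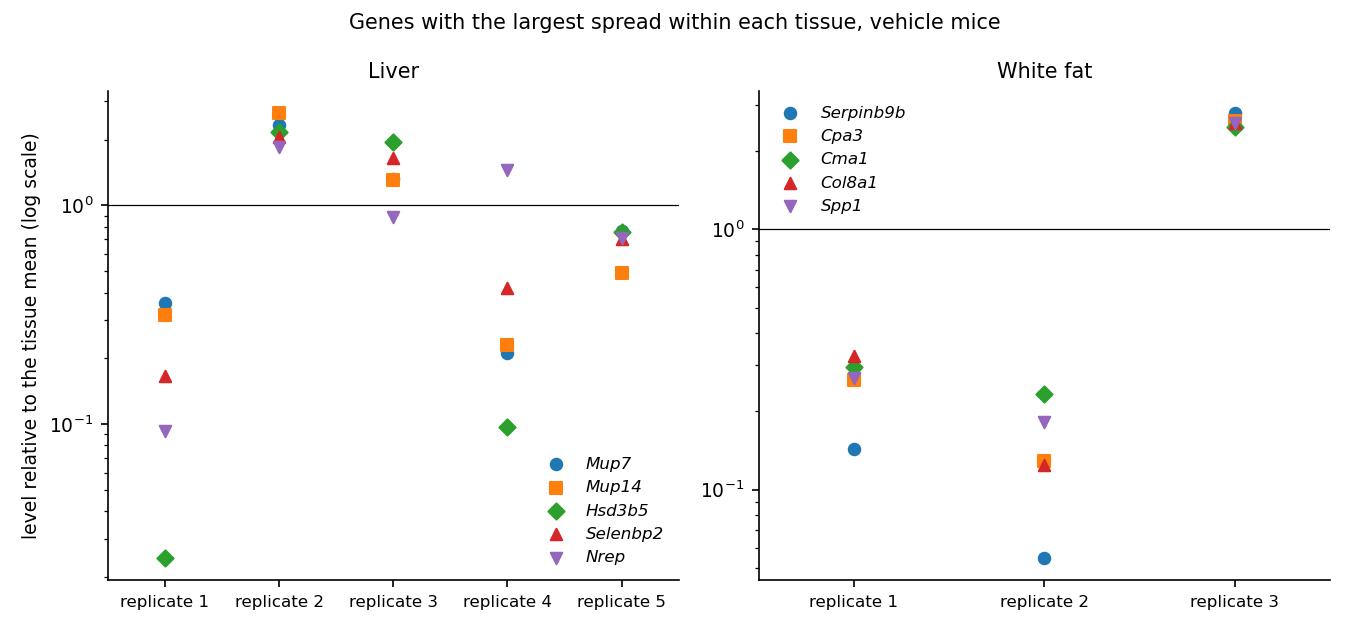
The 5 genes with the largest spread within liver (left) and within white fat (right), as the level in each library relative to the tissue's mean on a log axis. Liver replicates 2 and 3 lie above the mean for Mup7, Mup14, Hsd3b5 and Selenbp2, and fat replicate 3 lies above the mean for all 5 fat genes.

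The same tissue contrast was fitted in the 8 libraries of halofuginone-treated animals, which the vehicle comparison does not use. Of 14003 genes tested there, 9550 were called (68.2%), 4465 higher in liver (31.9%) and 5085 higher in fat (36.3%). Of the 10045 vehicle-called genes tested in both, 9762 had the same direction under drug, 8396 of them also called, and 22 were called in the opposite direction. Cidea was among the 22, with a log2 difference of 3.54 in vehicle and −6.24 under drug, and Stab1, a scavenger receptor of sinusoidal endothelium and macrophages, with −1.27 and 0.55. For Cidea the mean levels under drug were 0.0842 CPM in liver and 7.06 CPM in fat. A test of the difference between the 2 arms, chosen after seeing the data, called 172 of 13786 genes.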

How the data were processed

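Libraries were made from poly(A)-selected RNA. The tables hold counts per gene and FPKM, both made by the authors, per the file headers. The submitters' processing notes name fastp 0.18.0, Bowtie2 2.2.8, HISAT2, StringTie 1.3.1, RSEM and build mm39, without roles. Counts deposited for the 2 tissues were joined on gene identifier (22322 identifiers, 22267 with a symbol).

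Genes were filtered with filterByExpr, scaled by TMM and tested two-sided with edgeR 4.0.16 (R 4.3.3, glmQLFit and glmQLFTest, with Benjamini-Hochberg adjustment over all genes tested). TMM factors were 0.696 to 0.764 in liver and 1.716 to 1.746 in fat. The deposited FPKM values served for pair shares, for levels between genes and, with limma 3.58.1, as an alternative. DESeq2 1.42.0 was another. A list median is also given with genes at the 3-count floor set at that bound.

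On simulated data with 14051 genes, edgeR recovered 53 of 100 genes changed 2-fold and 88 of 100 changed 4-fold, with 7 false calls of 148. No other genes were changed in the simulation, whereas 10333 genes were called in the vehicle data. Its recovery and false calls therefore do not measure the error rate of the tissue comparison, whose calls also depend on the scaling. No 2 replicates of a group agreed within sampling noise.

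Over 8124 genes, deviations of same-numbered vehicle libraries from their tissue mean correlated at 0.165, 0.336 and 0.262, and others at −0.274 to 0.0233. The labels do not state a pairing. The main fit therefore used no block, and the replicate number was a block only in an alternative fit. The halofuginone pairs gave −0.036, 0.0504 and −0.126.

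Members and lists were chosen with earlier results of these data known. Genes were named by fitted size of difference (10 each way, at least 100 CPM), FPKM, list extremes and exceptions, pairs, spread, and near equality. Other list members were chosen after their values were seen, as were the promoters, the interaction test and the counts without fat replicates 2 and 3. Some members counted in the lists and pairs are not reported here by name.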

Additional observations from a re-analysis of the deposited data

Results flagged for a closer look

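Within the 5 vehicle livers, 145 named genes were examined for a library far from the others by Dixon's test (limit 0.71 for 5 samples), and 9 were flagged. Chance flags about 1 in 20 groups, and groups of 3 fat libraries were not tested. Liver replicate 1 was highest for Arntl (10.1 CPM, next 4.68), Cps1 (5379 CPM, next 3846), Hamp (1015 CPM, next 399.5) and Orm1 (722 CPM, next 516). Liver replicate 2 was highest for Asns (1.78 CPM, next 0.804) and Cfd (40.1 CPM, next 16.9). Liver replicate 3 was highest for Pdk4 (76.2 CPM, next 20.6). Liver replicate 5 was highest for Rbp4 (3026 CPM, next 2807) and Upk3b (1.72 CPM, next 0.461). Without the library that stood apart, each of the 9 kept its direction and its call, but Pdk4 moved from −3.51 to −4.36 on the log2 scale and Upk3b from −4.33 to −6.00.

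The interaction term of edgeR's quasi-likelihood test was read only for named genes called in opposite directions in the vehicle and halofuginone arms. The tissue difference of 2 such genes differed between the arms. Named genes with the same direction in both arms were not examined for it. For Cidea the difference under drug minus that in vehicle was −9.67 on the log2 scale (SE 1.56, adjusted p 0.00904). For Stab1 it was 1.93 (SE 0.23, adjusted p 0.00128).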

How the results depend on the processing

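Under the alternatives tried, 135 of 160 named genes kept their direction and side of the threshold in every fit that could be made. Most changed 1 choice, but limma on FPKM changed unit, scaling, filter and test together, and limma-voom also weighted by tissue. The 10333 calls became 10538 with DESeq2, 9602 with limma-voom and 5962 (2414 higher in liver, 3548 higher in fat) when tested against a log2 difference of 1. Leaving out 1 library gave 9840 to 10552 calls, 4714 to 5141 higher in liver and 5126 to 5434 higher in fat. With the replicate number as a block there were 9442 calls (4639 and 4803), and beside Nampt and Spp1 no named gene changed its call. Library size alone gave 1766 genes higher in liver and 10282 higher in fat. Limma on log2 FPKM gave 1709 and 8658 with a pseudocount of 1, 1703 and 8633 with 0.1, and 1848 and 11566 with no filter. In the halofuginone libraries, library size alone gave 1646 and 9602, leaving out 1 library gave 8944 to 10039 calls, and the block gave 7512, although same-numbered libraries did not vary together there. With limma-voom, direction reversed for Acaca (0.0198) and the fatty acid synthesis median (0.15). With library size alone, direction reversed for Acacb (−0.97), Atf4 (−1.20), Cebpa (−0.42), Cebpb (−0.17), Dgat2 (−0.17), Nampt (−0.83), Nfia (−0.06458), the glucose handling median (−0.58), the triglyceride assembly median (−0.16), the hormone receptors median (−0.68), the respiratory chain, nuclear median (−0.11) and the iron handling median (−0.32). With upper quartile factors, direction reversed for Acacb (−0.009738) and Atf4 (−0.24). With the 10 scaling genes, direction reversed for Acacb (−0.11) and Atf4 (−0.35). With limma on log2 FPKM and a pseudocount of 1, direction reversed for Acacb (−0.95), Atf4 (−1.18), Cebpa (−0.40), Cebpb (−0.16), Col14a1 (−0.19), Dgat2 (−0.0563), Nampt (−0.62), Nfia (−0.23), Nrep (−0.30), the glucose handling median (−0.22), the triglyceride assembly median (−0.07555), the hormone receptors median (−0.43), the respiratory chain, nuclear median (−0.05829) and the iron handling median (−0.22). With limma on FPKM and a pseudocount of 0.1, direction reversed for Acacb (−1.03), Atf4 (−1.20), Cebpa (−0.40), Cebpb (−0.16), Col14a1 (−0.21), Dgat2 (−0.05598), Nampt (−0.64), Nfia (−0.28), Nrep (−0.40), the glucose handling median (−0.18), the triglyceride assembly median (−0.07565), the hormone receptors median (−0.60), the respiratory chain, nuclear median (−0.05835) and the iron handling median (−0.28). With limma on FPKM and no filter, direction reversed for Acacb (−0.95), Atf4 (−1.18), Cebpa (−0.40), Cebpb (−0.16), Col14a1 (−0.19), Dgat2 (−0.0563), Nampt (−0.62), Nfia (−0.23), Nrep (−0.30), the glucose handling median (−0.55), the triglyceride assembly median (−0.07555), the hormone receptors median (−0.43), the respiratory chain, nuclear median (−0.05829) and the iron handling median (−0.22). With all 16 libraries in 1 fit, direction reversed for Atf4 (−0.0397). With no filter on low counts, direction reversed for the cytosolic ribosomal proteins median (0.0102). Leaving out 1 library turned the sign of Acaca (−0.29 to 0.27), Acacb (−0.0433 to 0.68), Atf4 (−0.01766 to 0.16), Spp1 (−2.30 to 0.34), the fatty acid synthesis median (−0.08051 to 0.37) and the cytosolic ribosomal proteins median (−0.05306 to 0.0223), given as the lowest and highest value. The cause was not tested beyond the change of scale itself. Named genes that lost their call in the same direction were Hsd3b5, Krt19, Mup14, Nampt, Selenbp2, Spp1 and Srebf1 with limma-voom, Arntl, Bckdk, Cebpa, Cebpb, Dgat2, Krt19, Nampt, Nfia, Spp1 and Srebf1 against a log2 difference of 1, Col14a1, G0s2 and Hp with library size alone, G0s2 and Hp on the FPKM scale with either pseudocount, G0s2, Hp and mt-Co1 there with no filter, Cebpa and Nampt with the 10 scaling genes, and Krt19, Nampt and Srebf1 without fat replicate 2. Named genes that gained a call were Acaca, Itm2b, Plin2, Ppia and Scd1 with library size alone and on the FPKM scale, Itm2b, Plin2 and Ppia with upper quartile factors and the 10 scaling genes, all towards fat, and Nrep, towards liver, without liver replicate 1. Nampt also lost its call with DESeq2 or its size factors, upper quartile factors, a filter at 1 CPM in 3 libraries, and all 16 libraries in 1 fit. Fat has 3 libraries, which limits the precision of its levels.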
